A study of Mus musculus with 14 samples.

Results

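Fc receptors bind the constant part of antibodies. In the mouse, Fcgr1, Fcgr3 and Fcgr4 encode activating receptors for IgG, and their signal runs through the shared gamma chain encoded by Fcer1g, whose tyrosine motif recruits the kinase Syk. Fcgr2b encodes the inhibitory IgG receptor, whose own tyrosine motif recruits the lipid phosphatase SHIP1 (Inpp5d) and dampens activating signals. It is known from B cells, myeloid cells and some endothelial cells, while the activating receptors are known from macrophages, monocytes and neutrophils. Fcgrt encodes the heavy chain of the neonatal Fc receptor, which pairs with B2m, recycles IgG and albumin, and is made by many cell types.

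These 6 genes were taken by symbol from tables of 24411 genes, and all 6 were found. Fcgr2b was chosen by its read counts, which were lower after laparotomy in wild-type (WT) hosts, so every value of that comparison is given as a description, with no test. The question was whether Fcgr2b followed the other 5 genes. RNA sequencing gave 14 libraries of MC-38, a mouse colon cancer line. In culture, 3 libraries came from untreated cells and 3 from cells exposed to NET chromatin, the DNA webs (neutrophil extracellular traps) that neutrophils release. GFP-expressing MC-38 cells were flow-sorted on day 30 from lung tumours, 2 libraries a group. The 4 groups of hosts were WT mice or PAD-4 knockout (KO) mice, either without surgery or opened by laparotomy on day 0 and again on day 10. PAD4 is an enzyme that citrullinates histones during NET release, and the knockout is that of the host: the labels give the genotype of the sorted cancer cells as WT in all groups. All groups share 1 cancer line. How the tumours were started, and the age, sex and strain of the mice, are not stated in the labels. Whether the replicates were separate cultures or mice is not stated, so a p-value here reflects the spread among the libraries at hand, which may be technical.

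Gene counts summed to 6.39 to 20.6 M in culture libraries and 10.8 to 31.3 M in tumour libraries. Levels are counts per 1 M of this sum (CPM). The colon epithelial markers Epcam, Krt8, Krt18, Cdh1 and Cdx2 together gave only 0.243 to 0.939 CPM in the 6 culture libraries, so they do not mark this line here. The sorted tumour cells held RNA of other cell types. The summed level of 6 pan-leukocyte markers was 3.27 to 10.3 CPM in culture and 55.4 to 778 CPM in tumour libraries. WT control replicate 2 stood apart with 778 CPM, against 55.4 to 132 in the other 7 tumour libraries. The 13 macrophage and monocyte markers summed to 1631 CPM in that library and to 108 to 459 in the other 7. Fewer cells of a type and less RNA per cell cannot be told apart in such bulk samples.

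Fcgr2b and Fcer1g signal in opposite senses through the tyrosine motifs shown here. Fcgr2b lies at chr1:170958617-170976547 (GRCm38, minus strand). Its inhibitory motif is encoded in exon 8 of 8, at chr1:170961071-170961088, and those codons are in capitals. Fcer1g lies at chr1:171229572-171234365 (minus strand), and the codons of its activating motif, with a pair of tyrosines, span exons 4 and 5 of 5.
Fcgr2b: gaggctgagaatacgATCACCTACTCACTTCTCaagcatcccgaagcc
Fcer1g: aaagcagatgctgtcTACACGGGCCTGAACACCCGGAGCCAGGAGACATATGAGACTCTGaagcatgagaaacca

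Fcgr3 lies at chr1:171051174-171064935 (minus strand) and Fcgr4 at chr1:171018920-171029761 (plus strand), in the same cluster on chromosome 1. Fcgr1 lies at chr3:96282909-96293969 and Fcgrt at chr7:45092990-45103851, both on the minus strand. Fcgr2b and Fcgr3 are close relatives: 83.9% of their 784 aligned coding bases were identical, against 63.5% for Fcgr2b and Fcgr4 and 59.7% for Fcgr2b and Fcgr1. The longest run the 2 transcripts share was 129 bases, coding in both and spanning exons 3 and 4 of each. It is shown in capitals because a read inside it fits both genes.
Fcgr2b and Fcgr3: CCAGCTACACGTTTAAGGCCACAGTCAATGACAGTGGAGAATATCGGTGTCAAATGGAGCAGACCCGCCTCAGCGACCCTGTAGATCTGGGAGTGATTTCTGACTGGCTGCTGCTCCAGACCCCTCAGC
Of the 100-base windows of the Fcgr3 transcript, 3.53% also occurred in Fcgr2b, and 1.28% of those of Fcgr2b occurred in Fcgr3. At 50 bases the shares were 12.8% and 4.75%, and at 150 bases 0 for both. The read length is not stated in the labels, and a read that lies within a shared stretch cannot be given to 1 of the genes, so both levels are uncertain. Counting all other genes, 3.54% of the 100-base windows of Fcgr2b and 11.4% of its 50-base windows occurred elsewhere. No 50-base window of Fcgr1, Fcgr4, Fcer1g or Fcgrt occurred in another gene's transcript.

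In culture the 6 genes were low. Counts are given here because many were near 0. Fcgr2b had 3, 1 and 2 counts in the control cultures and 7, 15 and 13 with NET chromatin, or 0.195 ± 0.13 and 1.27 ± 0.94 CPM (SD, n = 3 each). All 3 NET libraries were above all 3 controls. Over pooled counts (35 against 6, scaled to library totals) the ratio was 5.48, with an exact 95% interval of 2.28 to 15.9 that covers counting error only. Fcgr2b did not pass the filter on low counts and was therefore not tested in the edgeR fit. Without that filter its log2 fold change was 2.58 ± 0.59 (SE; edgeR adjusted p = 7.17e-05), and DESeq2 gave 2.86 ± 0.86 (adjusted p = 0.00342). The p-value without the filter is not comparable with those of the main fit, as shown for Fcer1g below.

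Fcer1g, the signalling chain, was nearly absent from control cultures, with 0, 1 and 0 counts, and had 17, 13 and 43 counts with NET chromatin. Its NET levels were 1.99, 2.03 and 2.09 CPM. The pooled ratio was 68.6 (exact 95% interval 11.9 to 2745). The fitted log2 fold change was 5.79 ± 0.58 (edgeR adjusted p = 5.27e-07), a size that rests on the near absence of counts in controls. Fcer1g passed the filter, a level of about 0.951 CPM in 3 libraries, only through the NET libraries, where it was high. Fcgr3 had 8, 6 and 11 counts in controls and 16, 7 and 29 with NET chromatin. That is 0.764 ± 0.24 against 1.46 ± 0.39 CPM (SD, n = 3 each), with all NET libraries higher. The log2 fold change was 1.11 ± 0.34 (edgeR adjusted p = 0.0117). Fcgr3 too passed the filter only through the 3 NET libraries. With no filter at all, which removes that dependence, edgeR gave 1.10 ± 0.39 for Fcgr3 (adjusted p = 0.0146) and 5.78 ± 0.67 for Fcer1g (adjusted p = 2.61e-16). For Fcer1g the SE was larger than in the main fit and the adjusted p far smaller. P-values of the fit with no filter are therefore not comparable with those of the main fit. The Fcgr3 call was lost in DESeq2 (adjusted p = 0.0952) and without control replicate 2 (edgeR adjusted p = 0.0644), and without NET replicate 3 Fcgr3 no longer passed the filter.

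Fcgrt went the other way. It stood at 3.87, 4.49 and 3.40 CPM in control cultures and at 1.29, 1.57 and 1.94 CPM with NET chromatin, again with no overlap. Its log2 fold change was -1.05 ± 0.24 (edgeR adjusted p = 0.00126). Fcgr1 had 1, 1 and 0 counts in controls and 2, 0 and 5 with NET chromatin. Fcgr4 had no count in the 3 control libraries, which allows a level of up to 0.243 to 0.341 CPM in each, and 1, 0 and 1 counts with NET chromatin. Neither was tested in the edgeR fit, and both groups overlapped. Fcgrt was above the cutoff of the filter in all 6 culture libraries. Among 11753 genes tested, 26.3% were called higher and 27.8% lower, so calls were common. No count over the members that passed is read, because Fcer1g and Fcgr3 passed only through the group where they were high. Groups did not overlap for 3 members above the controls and 1 below, against 13.3% and 30.8% of all genes with counts.

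Several markers of myeloid cells were higher in the NET cultures, as were other markers, and 26.3% of all tested genes were called higher. The pan-leukocyte sum was 3.27 to 3.76 CPM in controls and 8.20 to 10.3 with NET chromatin. The endothelial sum was 12.6 to 13.8 and 19.2 to 22.6 CPM. The B, T and NK cell sums were also higher in all 3 NET libraries. Dendritic and mast cell sums overlapped, and the lung epithelial sum was lower. The 8 neutrophil markers summed to 0.114 to 0.327 CPM in controls and 7.85 to 10.3 with NET chromatin. Most of that sum was Mmp8, a neutrophil collagenase (at most 0.0810 CPM in controls and 5.58 to 7.20 with NET chromatin). S100a9 was at 0 in controls and at 0.937 to 1.36 CPM with NET chromatin, and S100a8 and Csf3r were also higher in all 3 NET libraries, while Retnlg and Ngp were at 0 in all 6 cultures. The 13 macrophage and monocyte markers summed to 103 to 125 CPM and 151 to 173 CPM, of which Cd68 alone made up 83.4 to 102 CPM and 122 to 139 CPM. Adgre1, which encodes F4/80, was at 0 in controls and at 1.46 to 1.88 CPM with NET chromatin. Lyz2 was at 1.93 to 2.29 and 7.67 to 9.07 CPM, and Csf1r and Mrc1 were also higher in all 3 NET libraries. Mertk of the same list went the other way, at 17.3 to 20.8 CPM in controls and 13.6 to 17.1 CPM with NET chromatin. C1qa and C1qc were at 0 in all 6 cultures. Their part in the rise of Fcer1g and Fcgr3 was not tested.

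Genes that act with the receptors were taken from lists chosen by function. In the activating list (kinases, adaptors and effectors such as Syk, Lyn and Btk), 12 of 22 genes were tested in culture, of which 4 rose and 2 fell with NET chromatin, with a median log2 fold change of 0.03 against 0.00 for all genes. Rac2, a GTPase of phagocytes, rose by 1.58 ± 0.32 (edgeR adjusted p = 0.000498), and Syk, the kinase that binds the Fcer1g motif, by 0.82 ± 0.21 (adjusted p = 0.00355). The adaptor Grb2 (0.26 ± 0.07) and the kinase Prkcd (0.23 ± 0.07) also rose, while the adaptor Gab2 (-0.57 ± 0.09) and the phospholipase Plcg2 (-0.38 ± 0.06) fell. In the inhibitory list, 8 of 10 genes were tested, and 3 fell and none rose. With 26.3% of all tested genes called higher and 27.8% lower, the shares called in both lists are read as no result about them. The 3 inhibitory genes that fell were the phosphatase gene Inppl1 (-0.38 ± 0.07), the kinase gene Csk (-0.47 ± 0.11) and the phosphatase gene Ptpn11 (-0.21 ± 0.08). B2m, the partner of Fcgrt, rose by 0.34 ± 0.06 (adjusted p = 0.000265) where Fcgrt fell, and was the only call among 2 tested of 15 other Fc-binding genes.

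**Figure D1:**
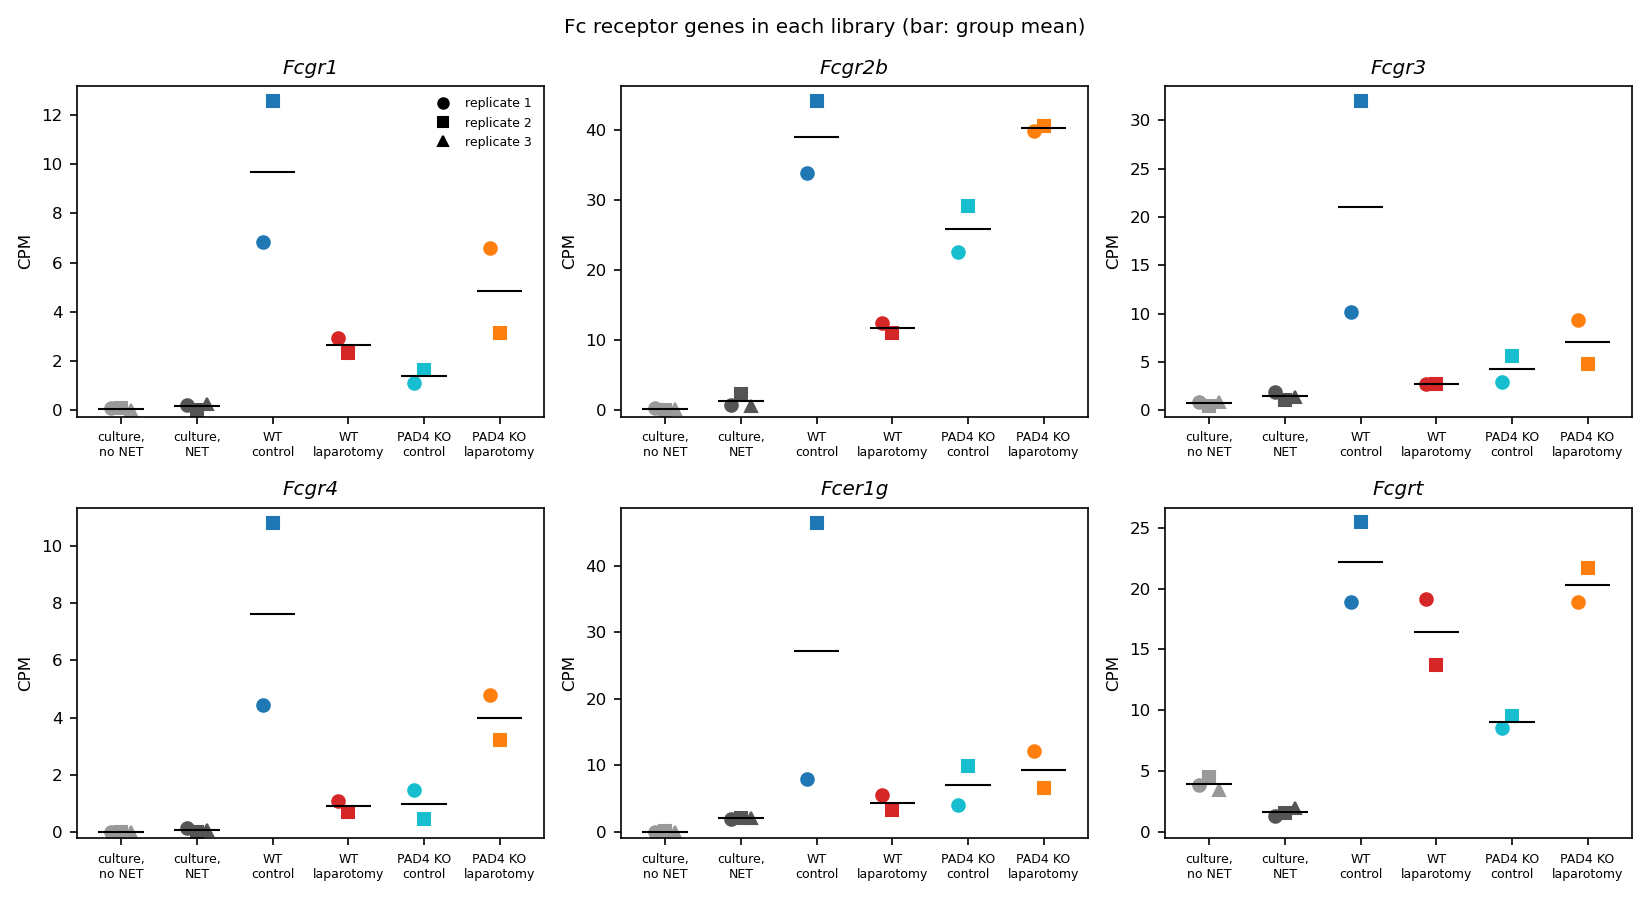
Level of each gene in CPM (vertical axis, linear, a scale of its own in each panel) in the 14 libraries, by group; each point is 1 library, its shape the replicate number, and bars are group means. Fcgr2b lies between 11.04 and 44.1 CPM in tumour libraries and under 2.4 CPM in culture, while WT control replicate 2 is the highest point for all 6 genes.

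All 6 genes were higher in each of the 8 tumour libraries than in each of the 6 culture libraries. For Fcgr2b the lowest tumour library had 11.04 CPM and the highest culture library 2.35. For Fcgr4 the lowest tumour value was 0.458 CPM (12 counts), against at most 0.117 in culture. Tumour and culture libraries differ in the host cells they hold, and no test was made between them.

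Levels were also divided by the length of all annotated exons of a gene joined, to compare genes with each other. On this scale Fcgr2b was never the highest member in a tumour library. Fcer1g led in 5 of the 8 libraries and Fcgrt in 3. In WT controls the mean was 31.1 CPM per kilobase for Fcer1g, 12.1 for Fcgr3, 10.6 for Fcgrt, 6.73 for Fcgr2b, 6.07 for Fcgr4 and 3.74 for Fcgr1. With laparotomy in WT hosts it was 7.81 for Fcgrt, 4.98 for Fcer1g, 2.03 for Fcgr2b, 1.59 for Fcgr3, 1.02 for Fcgr1 and 0.715 for Fcgr4. The joined exons of Fcgr2b have 5790 bases, the longest of the 6. Its transcript used for the shared windows has 3544 bases, and that of Fcer1g has 674 against 874 joined. Such shorter lengths would raise Fcgr2b relative to the other members. Its place in this order, including that it never led, thus depends on the length chosen.

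Laparotomy in WT hosts was the comparison that chose Fcgr2b, and it is described here. Fcgr2b stood at 33.8 and 44.1 CPM in WT control tumours and at 12.5 and 11.04 CPM with laparotomy. Both laparotomy libraries lay below both controls, and the log2 fold change was -1.72 ± 0.18 (SE). The activating receptors and their chain were lower too. Fcgr3 had 10.1 and 32.0 CPM in controls and 2.76 and 2.75 CPM with laparotomy, a log2 fold change of -2.92 ± 0.60. Fcgr4 had 4.43 and 10.8 CPM against 1.09 and 0.704 CPM (-3.07 ± 0.72). Fcgr1 had 6.82 and 12.5 CPM against 2.93 and 2.34 CPM (-1.87 ± 0.51). None of these overlapped.

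Fcer1g had 7.93 and 46.4 CPM in WT controls and 5.47 and 3.23 CPM with laparotomy (log2 fold change -2.64 ± 0.86). Fcgrt was the exception, with 18.9 and 25.5 CPM against 19.2 and 13.7 CPM, which overlap (-0.42 ± 0.23). So 5 of 6 members were below the controls without overlap, where 26.2% of all genes with counts were. With all libraries the point estimate for Fcgr2b was the smallest fall of these 5, and its SE was the smallest of the 6 members. Whether the falls of single genes differ from each other was not tested. At the threshold of 0.05 on the adjusted p, 0.0205% of all 14615 genes were called higher and 0.0342% lower in this comparison, from which nothing is read for the members.

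WT control replicate 2 weighed on these falls to differing degrees, most on that of Fcer1g and least on that of Fcgr2b. Without it, the log2 fold change was -0.87 for Fcer1g, -1.37 for Fcgr1, -1.52 for Fcgr2b, -1.88 for Fcgr3 and -2.30 for Fcgr4. Fcer1g lost most of its difference, and Fcgr2b was then no longer the smallest fall of the 5. Beside these values, the 6 pan-leukocyte markers summed to 105 and 778 CPM in the WT controls and to 79.2 and 55.4 CPM with laparotomy. The macrophage and monocyte sum was 378 and 1631 CPM against 115 and 108, and none of its 13 markers was at 0. The 8 neutrophil markers summed to 53.3 and 612 CPM in WT controls and to 5.12 to 7.17 with laparotomy, and the 5 lung epithelial markers to 122 and 742 CPM and to 9.45 to 20.2. The 11 endothelial markers summed to 178 to 574 CPM in WT controls and 68.4 to 69.4 with laparotomy, and the 5 B cell markers to 19.0 to 95.3 and 12.03 to 13.6. The 4 T cell markers did not fall in this way. They summed to 1.38 and 34.9 CPM in WT controls and to 16.5 and 14.1 CPM with laparotomy, which overlap. The part of these cell types in the falls of the Fc receptor genes was not tested.

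**Figure D2:**
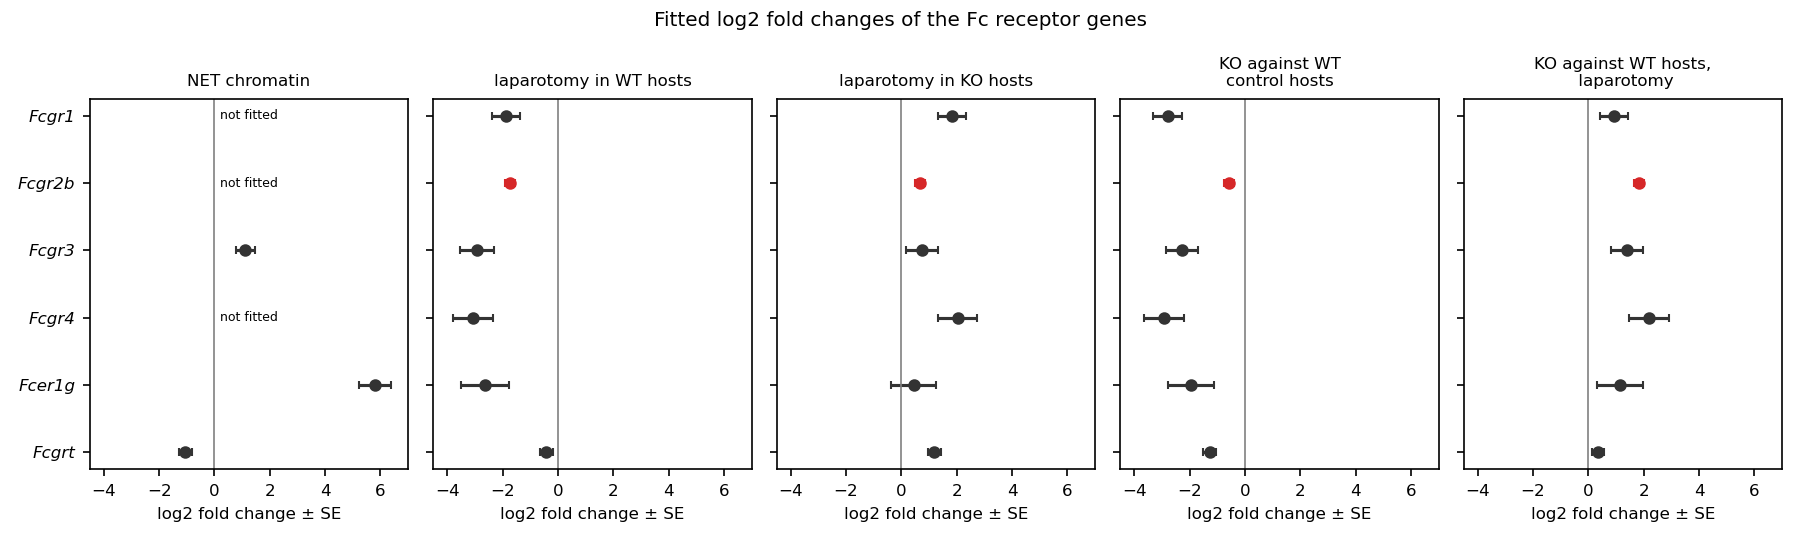
Fitted log2 fold change (horizontal axis) with its standard error (bars) for the 6 genes in 5 comparisons, Fcgr2b in red; "not fitted" marks genes that did not pass the filter on low counts. Fcgr2b has the same sign as Fcgr1, Fcgr3, Fcgr4, Fcer1g and Fcgrt in each of the 4 tumour comparisons, which share libraries, and shorter bars.

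In KO hosts all 6 genes had a positive fold change with laparotomy, and none passed the threshold in edgeR. The libraries of this comparison were not used to choose Fcgr2b. Fcgr2b stood at 22.6 and 29.1 CPM in KO control tumours and at 39.9 and 40.7 CPM with laparotomy. Both laparotomy libraries were above both controls, with a log2 fold change of 0.66 ± 0.18 that did not pass the threshold (edgeR adjusted p = 0.140, 0.00564 before adjustment). Fcgr1 had 1.11 and 1.64 CPM in KO controls and 6.58 and 3.13 CPM with laparotomy (1.84 ± 0.52, adjusted p = 0.156). Fcgr4 had 1.48 and 0.458 CPM against 4.78 and 3.20 CPM (2.04 ± 0.70, adjusted p = 0.219).

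Fcgrt had 8.55 and 9.50 CPM in KO controls and 18.9 and 21.7 CPM with laparotomy, also without overlap. Its log2 fold change was 1.19 ± 0.24 (edgeR adjusted p = 0.0845). Fcgr3 (2.92 and 5.65 CPM against 9.37 and 4.76 CPM) and Fcer1g (4.03 and 9.96 CPM against 12.1 and 6.59 CPM) overlapped between the groups. Their log2 fold changes were 0.75 ± 0.57 (edgeR adjusted p = 0.580) and 0.44 ± 0.82 (adjusted p = 0.843). In edgeR 0 of 6 members passed the threshold and 4 had an unadjusted p below 0.05. With no filter on low counts edgeR called Fcgrt (adjusted p = 0.0210), and DESeq2 called 2, Fcgrt (adjusted p = 0.00199) and Fcgr1 (0.0235). Over all genes, 0.342% were called higher and 0.178% lower. Groups did not overlap, with laparotomy above, for 4 members and for 17.9% of all genes with counts.

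Leukocyte markers did not move in 1 direction here. The pan-leukocyte sum was 83.2 to 132 CPM in KO controls and 69.96 to 105 CPM with laparotomy, and the macrophage and monocyte sum was 114 to 327 CPM and 291 to 459 CPM. Both pairs of ranges overlap. Their part in the values of Fcgr2b, Fcgr1, Fcgr4 and Fcgrt was not tested. The laparotomy effect in KO minus that in WT hosts, which contains the comparison that chose Fcgr2b, was 2.38 ± 0.25 for Fcgr2b on the log2 scale. It was 3.70 ± 0.72 for Fcgr1, 3.67 ± 0.82 for Fcgr3, 5.11 ± 1.01 for Fcgr4, 3.08 ± 1.17 for Fcer1g and 1.61 ± 0.33 for Fcgrt, given without a test. For Fcgr1, Fcgr2b and Fcgr4 both laparotomy libraries lay below the controls in WT hosts and above them in KO hosts, as did 5.68% of 19282 genes with counts.

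The mean levels of all 6 genes were lower in control tumours of KO hosts than of WT hosts, and none of the 5 tested passed the threshold in edgeR. Fcgr2b, for which this is a description because the WT controls also served to choose it, had a log2 fold change of -0.56 ± 0.18, with 22.6 and 29.1 CPM below 33.8 and 44.1 CPM. For the other 5 genes the values were -2.78 ± 0.53 for Fcgr1 and -1.26 ± 0.24 for Fcgrt (edgeR adjusted p = 0.0956 each). They were -2.92 ± 0.72 for Fcgr4 (adjusted p = 0.148), -2.27 ± 0.59 for Fcgr3 (0.160) and -1.93 ± 0.83 for Fcer1g (0.313). In edgeR 0 of these 5 passed, and 4 had an unadjusted p below 0.05. DESeq2 called all 5 lower (adjusted p from 6.15e-05 for Fcgr1 to 0.04999 for Fcer1g, just under the threshold). With no filter on low counts edgeR called 2, Fcgr1 (adjusted p = 0.0190) and Fcgrt (0.0193). Over all genes, 0.0547% were called higher and 0.0616% lower. KO controls lay below WT controls without overlap for 5 of the 6 members, Fcer1g being the exception, and for 23.3% of all genes with counts.

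These values moved with single libraries. Without WT control replicate 1, the library with fewer leukocyte markers, Fcgr1, Fcgr3 and Fcgrt passed in edgeR (adjusted p = 0.0433, 0.0390 and 0.0484). Without WT control replicate 2, 0 passed, and the lowest adjusted p was 0.209. The log2 fold change was then -0.17 for Fcer1g, -1.23 for Fcgr3, -2.15 for Fcgr4, -2.29 for Fcgr1, -1.04 for Fcgrt and -0.37 for Fcgr2b. The Fcer1g difference was thus mostly that of 1 library. Without KO control replicate 1, 0 passed and the lowest adjusted p was 0.329, with Fcer1g at -1.44 and Fcgr4 at -4.04. The pan-leukocyte sum was 83.2 to 132 CPM in KO controls and 105 to 778 CPM in WT controls, and its part was not tested.

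With laparotomy in both hosts, Fcgr2b was higher in KO than in WT hosts, at 39.9 and 40.7 against 12.5 and 11.04 CPM (log2 fold change 1.82 ± 0.18, a description). Fcgr4 was at 2.19 ± 0.71 (edgeR adjusted p = 0.259), Fcgr3 at 1.40 ± 0.58 (0.358), Fcer1g at 1.15 ± 0.83 (0.586), Fcgr1 at 0.92 ± 0.50 (0.466) and Fcgrt at 0.35 ± 0.23 (0.548). In edgeR 0 of these 5 passed, and 2 had an unadjusted p below 0.05. DESeq2 called Fcgr4 (adjusted p = 0.0472). Over all genes 0.0205% were called higher and 0% lower. KO libraries lay above WT libraries for 5 of 6 members, with Fcgrt overlapping, and for 19.9% of all genes with counts. The pan-leukocyte sum was 69.96 to 105 CPM in KO and 55.4 to 79.2 CPM in WT hosts, which overlap. The macrophage and monocyte sum was 291 to 459 CPM against 108 to 115 CPM. Its part was not tested.

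In the tumour fit, 0 genes of the 3 pathway lists passed the threshold in KO laparotomy or in either KO against WT comparison. For KO against WT controls the median log2 fold change was -1.78 over the 22 activating genes, with 19 below 0, and -0.10 over the 10 inhibitory genes, with 5 below 0. All genes had a median of -0.02. Btk, a kinase of B cells and myeloid cells, had -3.54 ± 0.76 (edgeR adjusted p = 0.119), and Dok2, an adaptor that restrains signalling, -2.88 ± 0.71 (0.148). The other inhibitory genes below 0 were Pag1 (-2.65 ± 0.91), Ptpn6 (-1.79 ± 0.63), Inpp5d (-1.39 ± 0.69) and Cblb (-0.23 ± 0.14). The activating genes above 0 were Plcg1 (0.25 ± 0.13), Plcg2 (0.21 ± 0.38) and Grb2 (0.08 ± 0.12). Both lists thus held large falls and values near 0, and a difference between the lists was not tested. With laparotomy in KO hosts the medians were -0.08 for the activating and -0.15 for the inhibitory genes. With laparotomy in WT hosts, given as a description, they were -1.85 (20 of 22 below 0) and -0.36 (6 of 10 below 0). There Inpp5d, which encodes the phosphatase that the Fcgr2b motif recruits, had -2.52 ± 0.72.

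Within groups, the 2 libraries differed less in Fcgr2b than in Fcgr1, Fcgr3, Fcgr4 and Fcer1g in 3 of the 4 tumour groups. The exception was WT laparotomy, where replicate 2 had 0.886 times the Fcgr2b and 0.999 times the Fcgr3 of replicate 1. In WT controls, replicate 2 had 1.30 times the Fcgr2b of replicate 1, 1.35 times the Fcgrt, 1.84 times the Fcgr1, 2.44 times the Fcgr4, 3.15 times the Fcgr3 and 5.85 times the Fcer1g. The pan-leukocyte sums were 105 and 778 CPM in the same 2 libraries. In KO controls the ratio was 1.29 for Fcgr2b, 1.11 for Fcgrt and 2.47 for Fcer1g, so Fcgrt differed less than Fcgr2b there. In KO hosts with laparotomy it was 1.02 for Fcgr2b, while Fcgr1, Fcgr3 and Fcer1g of replicate 2 were at 0.476, 0.508 and 0.545 times replicate 1. These are ratios of 2 libraries each, with no test. They include counting error, which weighs more on genes with few counts, such as Fcgr4 with 12 in KO control replicate 2, where Fcgr2b had 763.

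**Figure D3:**
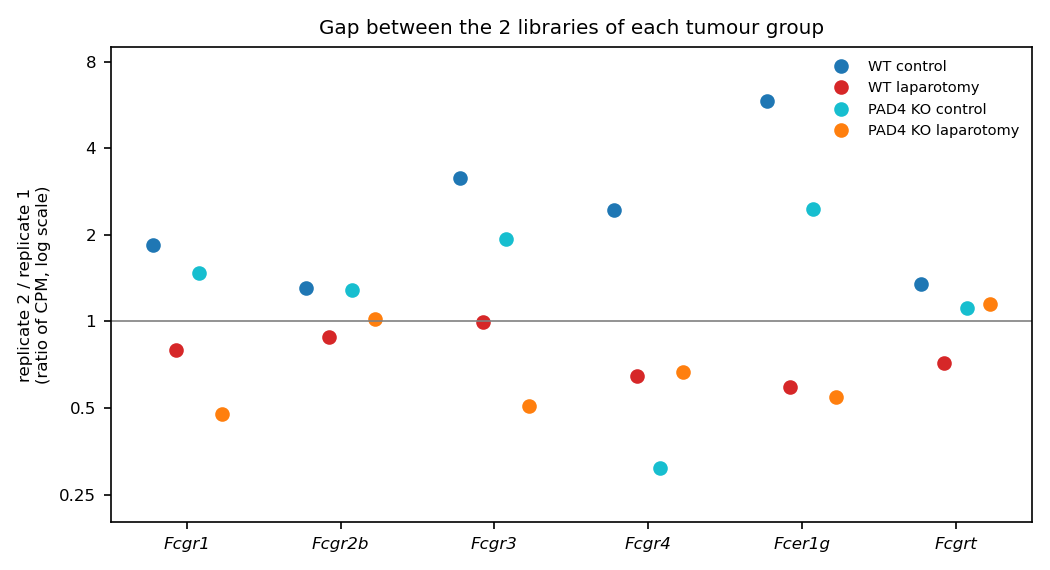
Ratio of the CPM of replicate 2 to that of replicate 1 (vertical axis, log scale) for each gene, 1 point for each of the 4 tumour groups; the line marks equal levels. The points of Fcgr2b lie between 0.886 and 1.30, those of Fcer1g between 0.545 and 5.85.

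Within a library, the level of Fcgr2b per Fcer1g was not constant. As a ratio of counts it was 4.27 and 0.951 in WT controls and 2.28 and 3.42 in WT laparotomy libraries. KO controls had 5.61 and 2.92, and KO laparotomy libraries 3.30 and 6.17. The 8 values spanned 6.49-fold, with a median of 3.36, and WT control replicate 2 was the lowest. On this scale the ranges of the 4 groups all overlapped, which was not so for the other members. Per Fcgr3, Fcgr2b stood at 3.34 and 1.38 in WT controls and at 4.52 and 4.01 with laparotomy. Per Fcgr4 it was 7.65 and 4.08 against 11.4 and 15.7, and per Fcgrt 1.79 and 1.73 against 0.651 and 0.806. Per Fcgr1 these WT groups overlapped, and KO controls (20.4 and 17.7) lay above all other tumour libraries. These ratios were not tested. Per summed macrophage and monocyte marker, Fcgr3 spanned 1.64-fold over the 8 libraries and Fcer1g 2.26-fold. On the same scale Fcgr1 spanned 5.07-fold, Fcgr2b 7.35-fold, Fcgr4 9.31-fold and Fcgrt 10.6-fold. Fcgr3 and Fcer1g thus kept nearest to that marker sum, and Fcgr1, Fcgr2b, Fcgr4 and Fcgrt did not.

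**Figure D4:**
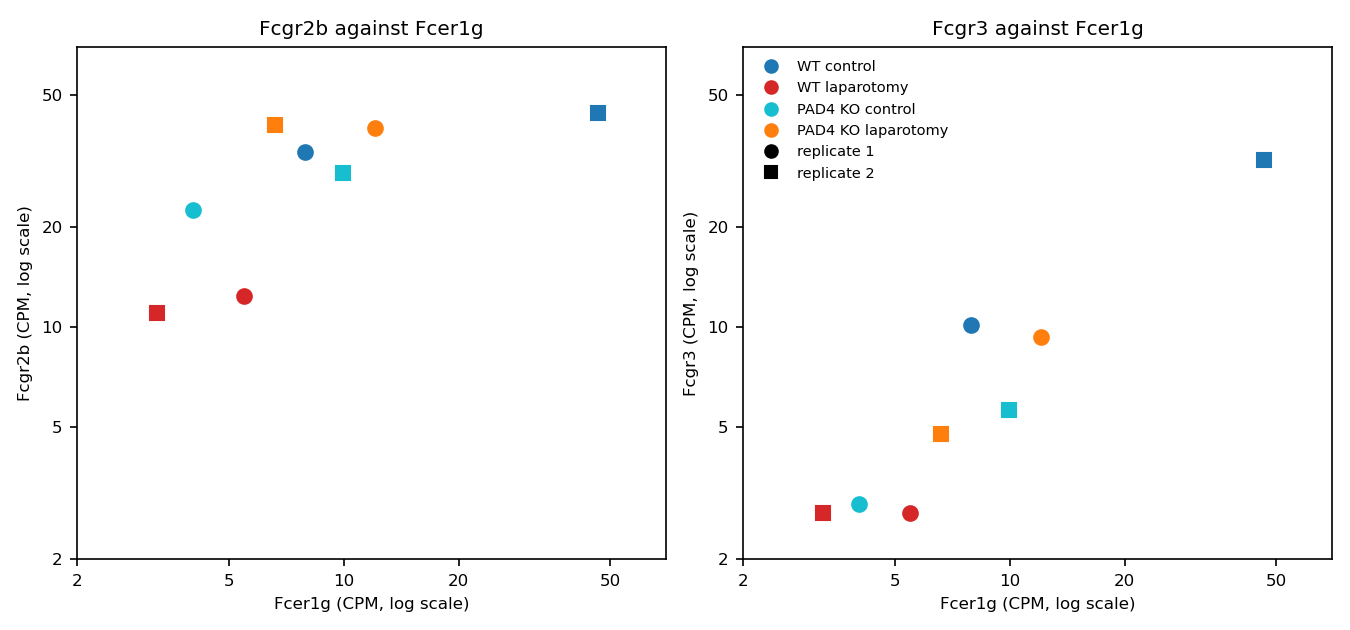
Fcgr2b (left) and Fcgr3 (right) against Fcer1g in the 8 tumour libraries, all in CPM on log axes; colours are groups and shapes replicates. Fcgr3 rises with Fcer1g up to WT control replicate 2 (46.4 CPM Fcer1g, 32.0 CPM Fcgr3), whereas Fcgr2b there, at 44.1 CPM, is close to its 39.9 and 40.7 CPM in KO hosts with laparotomy.

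Likeness across the 8 tumour libraries was described with Pearson's r of log2(CPM + 0.5). The libraries share their groups, composition and the choice of Fcgr2b, so no p is given. Fcgr2b had r = 0.75 with Fcgr3, 0.73 with Fcgr4, 0.70 with Fcer1g, 0.55 with Fcgr1 and 0.36 with Fcgrt. Among 14614 genes these members ranked 590, 684, 958, 2147 and 3925 in likeness to Fcgr2b. Without WT control replicate 2 the values were 0.80, 0.69, 0.76, 0.42 and 0.21. Fcgr3 and Fcer1g were closer to each other (r = 0.95), and Fcgr1 was closest to Fcgr4 (0.88) and Fcgr3 (0.87). Fcgrt was nearer to Fcgr1 (0.85) than to Fcgr2b.

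The 8 genes most alike Fcgr2b were Tram1, a protein of the endoplasmic reticulum translocon (r = 0.99), Ecscr, known from endothelial cells (0.97), the death receptor Fas (0.97), the protease inhibitor Cstb (0.97), the inositol phosphatase Inpp5a (0.96), the laminin chain Lama4 (0.96), Sptlc2 of sphingolipid synthesis (0.96) and the endoplasmic reticulum protein Erp44 (0.96). None of them is an Fc receptor gene or on the leukocyte lists. Tram1 itself ran only from 162 to 232 CPM, with WT laparotomy lowest, and Lama4 from 55.4 to 312 CPM, also with the WT laparotomy libraries lowest. The 5 genes most alike Fcer1g were Lcp1 (0.99), an actin-bundling protein of leukocytes and one of the pan-leukocyte markers, Lilrb4a (0.99), an inhibitory receptor of myeloid cells, Fgl2 (0.99), Plek (0.98), a platelet and leukocyte protein, and Clec4d (0.98), a myeloid lectin receptor. With the summed macrophage and monocyte markers r was 0.98 for Fcgr3 and 0.96 for Fcer1g. It was 0.82 for both Fcgr1 and Fcgr2b, 0.80 for Fcgr4 and 0.57 for Fcgrt, so Fcgr2b did not stand apart from Fcgr1 and Fcgr4 on this measure. With the pan-leukocyte sum r was 0.95 for Fcer1g, 0.89 for Fcgr3, 0.67 for Fcgr1, 0.66 for Fcgr4, 0.55 for Fcgr2b and 0.39 for Fcgrt. With the endothelial sum it was 0.92 for Fcer1g, 0.89 for Fcgr3, 0.70 for Fcgr2b, 0.63 for Fcgr1, 0.53 for Fcgr4 and 0.30 for Fcgrt.

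The promoters were compared because several members moved together across the tumour libraries. RefSeq (GRCm38.p6) gave 7 promoters for the 6 genes, each from 250 bases before to 50 after a start. The letters GAGGAA, the core bound by the myeloid factor PU.1, were searched on both strands. They occurred in the promoters of Fcgr1, Fcgr3 (both) and Fcgr4 and in none of the windows of Fcgr2b, Fcer1g or Fcgrt, while 28.3% of 32851 promoters of that length hold them. The matches lay 55 bases before the start in Fcgr1, 6 or 15 in Fcgr3 and 22 in Fcgr4, on the strand opposite to the gene. They are shown as 40 bases on the gene's strand, with the match (TTCCTC) in capitals.
Fcgr1, chr3:96294002-96294041, minus strand: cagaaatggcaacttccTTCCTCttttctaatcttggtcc
Fcgr3, chr1:171059387-171059426, minus strand: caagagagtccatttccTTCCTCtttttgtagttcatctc
Fcgr4, chr1:171018887-171018926, plus strand: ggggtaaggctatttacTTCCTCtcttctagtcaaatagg
The promoter of Fcgr2b (chr1:170976022-170976321, minus strand) is shown whole, since no match was found in it.
Fcgr2b: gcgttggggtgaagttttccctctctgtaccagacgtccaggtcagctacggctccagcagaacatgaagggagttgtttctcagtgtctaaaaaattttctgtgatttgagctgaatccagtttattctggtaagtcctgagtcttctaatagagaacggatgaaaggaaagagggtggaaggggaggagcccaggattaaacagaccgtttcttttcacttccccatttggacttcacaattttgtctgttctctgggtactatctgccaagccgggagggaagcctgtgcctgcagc
The shorter letters GGAA, which do occur in the Fcgr2b window, were not searched. The lack of a GAGGAA match is therefore not read as the lack of a PU.1 site. A match is a description of letters in these windows, and binding was not measured.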

How the data were processed

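The deposited tables hold read counts per gene from the authors' alignment. Trimmomatic, STAR and the mouse build mm10 are named per the submitters' processing notes; their versions, the annotation, the read length and the kit are not given in the labels. RNA was total RNA taken up in TRIzol, per the labels' protocols. Each table held 24411 gene symbols and 4 summary lines that name no gene and were left out (unmapped 4.00 to 11.5%, multimapping 6.14 to 9.25%, no feature 12.1 to 24.0%, ambiguous 1.11 to 1.51% of reads). The unstranded column was used, and the larger strand column was an alternative. No 2 libraries were identical.

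Levels are CPM of each library's gene counts. Tests used edgeR 4.0.16 in R 4.3.3 (filterByExpr, TMM, robust quasi-likelihood F test), with Benjamini-Hochberg adjustment over all genes tested and a threshold of 0.05. The 6 culture libraries (11753 genes) and the 8 tumour libraries in 4 groups (14615 genes) were fitted separately, with 4 residual degrees of freedom each. Standard errors come from the F statistic. Alternatives were RLE factors, library totals, no filter, DESeq2 1.42.0, the strand column, a replicate block and leaving out each library. In culture the p-values with no filter were not comparable with those of the main fit, and this was not examined in tumours. The same test was checked on simulated counts. Likeness was ranked over genes of the tumour fit. Named genes are the 6 members, the 8 genes most alike Fcgr2b and the 5 most alike Fcer1g (mean of at least 5 CPM, no predicted genes or pseudogenes), and, of each pathway list, those called where 5 or fewer were and the 2 of smallest p, of which not all are printed. Other genes of the lists are named where they show how a list varies. Members and lists were chosen with earlier results of these data known. Gene positions and transcripts are from GENCODE M21 (GRCm38). Intervals and zero-count limits (3 counts) cover counting error only, since no molecular identifiers were used in the counts.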

Additional observations from a re-analysis of the deposited data

Results flagged for a closer look

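For 3 genes every laparotomy library lay below the controls in WT hosts and above the controls in KO hosts, as did 1095 of 19282 genes with counts (5.68%). Because Fcgr2b was chosen by 1 of these comparisons, nothing is read from that share. The laparotomy effect in KO minus that in WT hosts was 3.70 for Fcgr1, 2.38 for Fcgr2b and 5.11 for Fcgr4 on the log2 scale. The difference was not tested here, because it contains the comparison that chose Fcgr2b. WT control replicate 2, whose leukocyte markers were highest, enters all of these values.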

How the results depend on the processing

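Of 455 recomputed log2 fold changes of the members (33 values under the alternatives), 427 kept their direction and their side of the threshold, or moved by less than 1 SE where no test was made. The 2 reversals were both of Fcer1g with laparotomy in KO hosts, where leaving out 1 library gave -0.054 (KO laparotomy replicate 1) to 1.20 (KO control replicate 2), with -0.045 without KO control replicate 1. Members called with laparotomy in KO hosts numbered 0, against 1 with no filter on low counts and 2 in DESeq2. For KO against WT controls the numbers were 0, against 2 with no filter and 5 in DESeq2. For KO against WT hosts with laparotomy they were 0 and 1 in DESeq2. The causes were not tested. Leaving out each library in turn gave 2 to 4 calls with NET chromatin, 0 to 3 for KO against WT controls, and 0 in the other 2 tested comparisons. It gave 5 to 6 members below the controls with laparotomy in WT hosts. The median likeness of the other 5 genes to Fcgr2b was 0.70, against 0.79 with Spearman's rho and 0.60 to 0.74 with a library left out. The median of Fcgr2b per Fcer1g was 3.36 and moved by less than its spread with the larger strand column. In culture, deviations of same-numbered libraries correlated from -0.06 to 0.11 and those of other pairs from -0.21 to 0.14, so no pairing by replicate number was seen. In tumours the same-numbered values ran from -0.13 to 0.39, highest between WT and KO controls. With 2 libraries a group, the other pairs have the same values with the sign changed, so pairing there cannot be judged. With a replicate block, 3 members were called with NET chromatin and 0 in each of the other 3 tested comparisons. All these counts of calls with NET chromatin depend on how many members passed the filter. Fcer1g and Fcgr3 passed it only through the NET libraries in the main fit. Among all genes tested there, 26.3% were called higher and 27.8% lower, so nothing is read from the NET counts. In culture the depth limits what can be seen of Fcgr1 and Fcgr4, which had at most 5 counts and 1 count in a library.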
